A study of Mus musculus with 14 samples.

Results

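Ion, water and lactate transport of the retinal pigment epithelium (RPE) was followed through 10 genes of the 34452 mouse genes in the count table: the chloride channel genes Best1 and Clcn2, the potassium channel genes Kcnj13 and Kcnq1, the channel subunit gene Kcne2, the water channel gene Aqp1, the lactate transporter genes Slc16a1, Slc16a3 and Slc16a8, and Bsg, which encodes their chaperone. They were listed by name for their role in RPE transport, except that Kcne2 was chosen by its measured counts, which fell in the treated eyes of these same libraries. The fall of Kcne2 is therefore given below as a description, without a test, while the other 9 genes were tested. All 10 were among the 16289 genes that passed the filter on low counts.

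RNA came from the RPE of 7 rd1 mice at postnatal day 20, all the pairs deposited, where the paper counted fewer pairs for this comparison. These FVB/N mice lack Pde6b function and lose their rods early, a background shared by both groups. One eye of each mouse received 2 adeno-associated virus (AAV) vectors under the retina, Best1-GFP and Best1-human Nrf2 (NFE2L2), and is called Nrf2, while the other eye received Best1-GFP alone and is called control. Both transgenes were driven by the human BEST1 promoter, which is active in RPE, and the Nrf2 eye carried an additional vector with another capsid, so transgene and added vector cannot be told apart. The RNA was collected from the eyecup after the retina had been taken off, so that cells other than RPE could contribute, and in such bulk samples fewer cells of a type and less RNA per cell cannot be told apart.

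The RPE separates the photoreceptors from the choroidal blood supply and moves ions, water and metabolites between them. Potassium leaves its apical face through Kir7.1, the Kcnj13 product, chloride leaves basally, and water follows. Lactate from the retina enters through MCT1, the Slc16a1 product, on the apical face and exits through MCT3, the Slc16a8 product, on the basal face, and both need the chaperone basigin, the Bsg product, to reach the membrane. KCNE2, the Kcne2 product, is a small membrane protein with no pore of its own that changes the gating of potassium channels such as KCNQ1.

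Promoter windows, from 250 bases before to 50 bases after a RefSeq transcript start on build GRCm38.p6, were found for 8 of the 10 genes. Those of Kcne2, whose RNA stood apart, and of Kcnj13, Slc16a1 and Slc16a8, whose levels moved together among libraries, are shown 5′ to 3′ on the gene's strand, with motif matches in capitals. Kcne2 also has a second start, and its window at chr16:92295366-92295665 held no match.
Kcne2, chr16:92292139-92292438, plus strand: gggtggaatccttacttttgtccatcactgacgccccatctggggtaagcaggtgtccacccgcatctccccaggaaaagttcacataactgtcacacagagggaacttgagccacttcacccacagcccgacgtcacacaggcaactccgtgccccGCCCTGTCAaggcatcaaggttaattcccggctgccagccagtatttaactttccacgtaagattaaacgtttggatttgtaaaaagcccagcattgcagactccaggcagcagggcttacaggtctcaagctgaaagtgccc
Kcnj13, chr1:87394680-87394979, minus strand: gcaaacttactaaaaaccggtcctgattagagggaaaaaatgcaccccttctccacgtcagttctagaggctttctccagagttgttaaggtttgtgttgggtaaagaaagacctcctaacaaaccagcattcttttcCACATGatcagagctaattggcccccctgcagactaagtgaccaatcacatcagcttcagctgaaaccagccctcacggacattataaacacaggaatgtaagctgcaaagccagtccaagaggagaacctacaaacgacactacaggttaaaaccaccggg
Slc16a1, chr3:104638414-104638713, plus strand: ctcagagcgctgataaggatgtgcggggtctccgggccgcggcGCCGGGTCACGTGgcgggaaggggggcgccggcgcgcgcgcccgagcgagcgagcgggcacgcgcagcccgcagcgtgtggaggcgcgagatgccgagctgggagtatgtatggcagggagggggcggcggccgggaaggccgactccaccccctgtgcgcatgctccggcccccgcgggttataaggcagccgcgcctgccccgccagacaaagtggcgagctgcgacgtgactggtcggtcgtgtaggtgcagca
Slc16a8, chr15:79254699-79254998, minus strand: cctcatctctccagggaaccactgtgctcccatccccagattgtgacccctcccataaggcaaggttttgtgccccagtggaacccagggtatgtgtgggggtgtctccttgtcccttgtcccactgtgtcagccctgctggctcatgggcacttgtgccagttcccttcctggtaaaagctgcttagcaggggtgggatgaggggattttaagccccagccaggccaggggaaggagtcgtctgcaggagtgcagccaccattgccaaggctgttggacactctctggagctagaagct
Both strands were searched for 4 motifs: TGACNNNGC, the core of the antioxidant response element that Nrf2 binds, CATGTG, the core of the M-box used by MITF, CACGTG, the canonical E-box, and TAATCC, the core bound by OTX factors. Kcne2 held the first as GCCCTGTCA, read on the opposite strand and starting 93 bases before the start site. Slc16a1 held it as GCCGGGTCA, overlapping the E-box CACGTG beside it. Kcnj13 held the M-box core as CACATG, and Slc16a8 held none of the 4. These letters are common, since 12.4% of all 32851 windows held TGACNNNGC, 14.2% CATGTG, 7.15% CACGTG and 7.06% TAATCC, and a match describes the sequence only.

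The libraries held 16548349 to 50543008 counts. Levels are given as CPM, counts scaled to a library total of 1e+06. The NFE2L2 vector transcript was at 1163 to 8711 CPM in Nrf2 eyes and at 1.12 to 1163 CPM in control eyes. Nrf2 4 and control 3 met at 1163 CPM, so these libraries lay between the groups and results resting on them are also given without mice 3 and 4. Defining RPE markers such as Rpe65, Rlbp1 and Rgr were abundant in all libraries, and the 14 RPE markers summed to 23651 to 32755 CPM in Nrf2 eyes and to 19365 to 39281 CPM in control eyes. Single markers in this sum shifted in opposite directions. Rpe65 was at 134 to 1063 CPM in Nrf2 eyes and 752 to 2220 CPM in control eyes. Ttr was at 3699 to 14241 and 1183 to 5895 CPM. Of the 14, 1 was lower and 0 higher at an edgeR adjusted p under 0.05, beside 3.43% of all tested genes in either direction. Surface epithelial keratins and Aldh3a1 were also abundant, with sums of 2245 to 23850 and 1901 to 54394 CPM. None of the marker genes of any of the 12 cell type lists was at 0 in every library.

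To rank the 10 genes, CPM were divided by the length of the gene's merged exons. Bsg was highest, with a median of 2468 CPM per kb over the 14 libraries, followed by Slc16a8 at 650, Kcnj13 at 245 and Slc16a1 at 150 CPM per kb. Each of these 4 lay above the next gene in the order in 14 of 14 libraries. Aqp1 followed at a median of 25.98, Clcn2 at 12.1 and Kcne2 at 4.77 CPM per kb, with Aqp1 above Clcn2 in 11 libraries, Clcn2 above Kcne2 in 12 and Kcne2 above Best1 in 12.

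Best1 was scarce for a gene whose protein, bestrophin-1, is a textbook RPE chloride channel. Its median was 0.691 CPM per kb, and 79.1% of tested genes were higher. Kcnq1 at 0.396 and Slc16a3 at 0.389 CPM per kb had close medians, although Kcnq1 was the higher of the pair in only 4 of 14 libraries, so their order is not firm. By contrast, 0.0737% of tested genes lay above Bsg and 0.289% above Slc16a8. The order was the same with the longest coding transcript as the length.

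**Figure D1:**
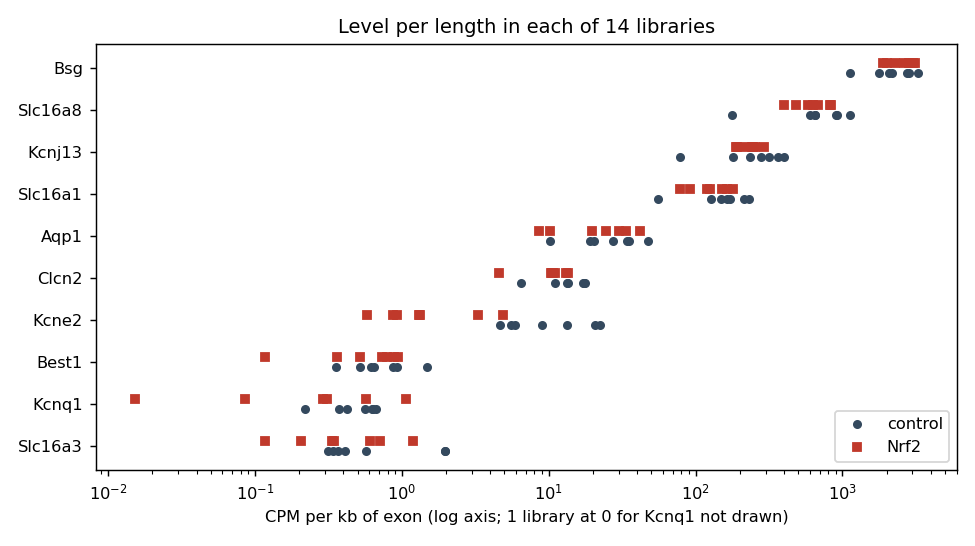
CPM per kb of merged exon (log axis) for the 10 genes in order of their median, with a circle for each of 7 control libraries and a square for each of 7 Nrf2 libraries. Levels span from medians of 2468 for Bsg to 0.389 for Slc16a3, and the 2 groups overlap for every gene, while 6 of 7 Nrf2 values of Kcne2 lie under all control values.

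Kcne2 fell in every one of the 7 pairs of eyes. From mouse 1 to mouse 7 it was at 1.03, 5.86, 2.30, 8.66, 1.64, 2.36 and 1.54 CPM in the Nrf2 eyes and at 39.5, 23.6, 8.19, 36.5, 10.4, 9.72 and 15.9 CPM in the control eyes. These values rested on 45 to 212 and 231 to 1592 counts. In all, 6 of 7 Nrf2 libraries lay below the lowest control, and the single overlap was between Nrf2 4 and control 3, the libraries that met in vector level. The fitted log2 fold change was -2.56 (SE 0.40), a 5.92-fold lower level. The within-mouse log2 differences ran from -5.18 in mouse 1 to -1.81 in mouse 3. Without mice 3 and 4 the groups did not overlap, at 1.03 to 5.86 against 9.72 to 39.5 CPM, and the log2 fold change was -2.92 (SE 0.48). For reference, 6.05% of the tested genes were lower in the Nrf2 eye of all 7 mice, and 0.755% had Nrf2 ranges wholly below the control ranges. Since Kcne2 was chosen for this fall, nothing is read from its place among them.

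Marker sums of some other cells were also lower in the Nrf2 eye of most mice. The 8 cone markers summed to 17.5 to 103 CPM in Nrf2 eyes and 41.3 to 1054 CPM in control eyes, and were lower in the Nrf2 eye of 7 of 7 mice. The 8 rod markers summed to 7.15 to 96.4 and 20.3 to 504 CPM and were lower in 6 of 7 mice. Controls 1 and 4 had the most Kcne2 and also the highest rod, cone and inner retina sums. The inner retina sum was nonetheless higher in the Nrf2 eye of 4 of 7 mice, with medians of 588 CPM in Nrf2 eyes and 491 CPM in control eyes. The ciliary epithelium pair Best2 and Optc summed to 36.3 to 121 and 1.68 to 250 CPM, and the 5 surface epithelium markers were likewise lower in 6 of 7 mice. Among the 7 control libraries, Kcne2 had r = 0.85 with the rod sum, 0.81 with the inner retina sum and 0.80 with the cone sum. In the same controls r was 0.79 with the endothelium sum, 0.52 with the RPE sum and -0.76 with the surface epithelium sum. Over all 14 libraries, centred within groups, r was lower, at 0.34 for rod, 0.45 for inner retina and 0.34 for cone sums. These values are descriptions over libraries that share depth and dissection. The part of these cells in the fall of Kcne2 was not tested.

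**Figure D2:**
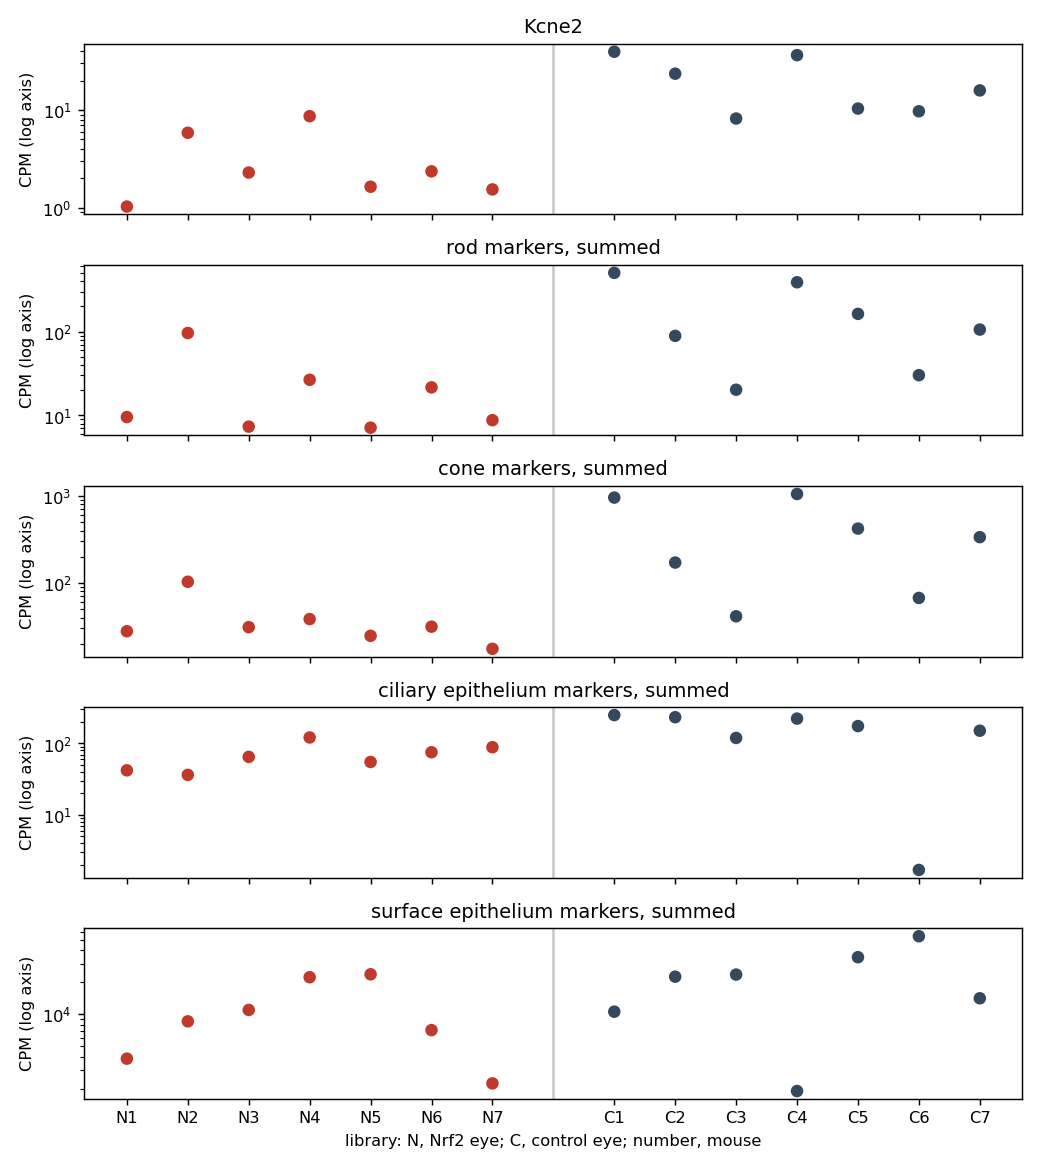
CPM (log axes) of Kcne2 and the summed CPM of rod, cone, ciliary epithelium and surface epithelium markers in each library, with Nrf2 eyes N1 to N7 and control eyes C1 to C7. Kcne2 and the cone sum are lower in the Nrf2 eye of all 7 mice, and controls 1 and 4 are highest for Kcne2, rod and cone markers.

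The 10 genes were also set against the vector transcript within the 7 Nrf2 eyes. For Kcne2, whose levels in these eyes entered its choice, the relation is given as a description, with Pearson's r of -0.77 and Spearman's rho of -0.75. Without both Nrf2 1 and Nrf2 4, the libraries farthest from the median vector level, r was -0.15. With 1 library left out it was -0.43 without Nrf2 4, -0.74 without Nrf2 1 and -0.93 without Nrf2 2, so the value leaned on Nrf2 4. None of the other 9 genes passed by exact permutation. The smallest unadjusted permutation p of Pearson's r among them was 0.0865, for Bsg (r = 0.64). Adjusted over all 10 genes, Kcne2 included, it was 0.43.

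The gene whose log2 level was most like Kcne2 over the 14 libraries, centred within each group, was Nmnat2, which makes NAD in neurons (r = 0.94). Ttc19, needed for mitochondrial complex III, and Ttyh1, a membrane protein of glia and neural precursors, followed at 0.91 and 0.90. The 12025 genes compared share libraries and depth, so these values are descriptions.

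Potassium channel genes were next. Kcnj13 ranged from 240 to 374 CPM in Nrf2 eyes with a median of 309, and from 99.5 to 506 CPM with a median of 355 in control eyes. All Nrf2 values lay inside the control range, which control 5 set at its lower end. The log2 fold change was 0.08 (SE 0.28, 95% interval -0.55 to 0.71), which did not pass the threshold (edgeR adjusted p = 0.91). Kcnj13 lies within Gigyf2 on the opposite strand, with 623 shared exon bases, and whether counting used strand was not given in the sources used here.

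Kcnq1, the gene of a pore subunit that KCNE2 can join, was near the floor. It was at 0 to 4.35 CPM in Nrf2 eyes (median 1.18) and 0.892 to 2.71 CPM in control eyes (median 2.31). Nrf2 7 had 0 counts, which allows up to 0.0594 CPM. The lowest control lay above 3 of 7 Nrf2 libraries, and Nrf2 2 was the highest of all. The log2 fold change of -1.52 (SE 0.92, 95% interval -3.61 to 0.57) did not pass (edgeR adjusted p = 0.42), and the exact two-sided sign-flip test over the 7 mice gave p = 0.0781, where 0.0156 is the smallest it can give. Mouse 2 alone had more Kcnq1 in its Nrf2 eye. With it left out all differences shared a sign, so the exact test could give only its minimum with 6 mice, p = 0.0312. Nothing is read from that value. The largest falls rested on 2, 8 and 0 counts in Nrf2 3, Nrf2 6 and Nrf2 7.

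The chloride channel genes did not pass either. Best1 was at 0.302 to 2.44 CPM in Nrf2 eyes (median 1.89) and 0.919 to 3.84 CPM in control eyes (median 1.67). Best1 counts were between 5 and 119 in all libraries, and the log2 fold change was -0.23 (SE 0.40, 95% interval -1.14 to 0.68; edgeR adjusted p = 0.80). Clcn2, encoding the voltage-gated channel ClC-2, was at 27.7 to 80.9 CPM (median 64.6) and 39.0 to 106 CPM (median 81.4). Its log2 fold change was -0.23 (SE 0.31, 95% interval -0.94 to 0.47; edgeR adjusted p = 0.73). Clcn2 shares 82 exon bases with Polr2h and 85 with Fam131a, both on the opposite strand.

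The lactate transporters kept a fixed order. Slc16a8 was at 913 to 1905 CPM in Nrf2 eyes (median 1445) and 401 to 2544 CPM in control eyes (median 1481), and Slc16a1 at 349 to 793 CPM (median 558) and 244 to 1017 CPM (median 730). The Nrf2 range lay inside the control range for both genes. The log2 fold changes were 0.08 for Slc16a8 (SE 0.38, 95% interval -0.78 to 0.93; edgeR adjusted p = 0.94) and -0.10 for Slc16a1 (SE 0.31, 95% interval -0.80 to 0.61; edgeR adjusted p = 0.90). Slc16a3, the gene of MCT4 of glycolytic cells, was at 0.621 to 6.35 CPM (median 1.83) and 1.68 to 10.5 CPM (median 2.17). Its log2 fold change was -0.56 (SE 0.54, 95% interval -1.80 to 0.67; edgeR adjusted p = 0.62).

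Of the RNA of these 3 transporters per length, Slc16a8 made up 80.6 to 85.2% in Nrf2 eyes and 76.1 to 84.0% in control eyes. Slc16a3 stayed at or below 0.248% in any library. The Slc16a8 to Slc16a1 ratio per length, a comparison chosen after the values were seen, was 4.18 to 5.77 in Nrf2 eyes and 3.20 to 5.28 in control eyes (exact two-sided sign-flip p = 0.125). The 2 highest Slc16a3 values, 10.5 CPM each, were in control 1 and control 4, the libraries with the most rod, cone and inner retina marker RNA, and the part of those cells was not tested.

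Bsg was at 3407 to 5622 CPM in Nrf2 eyes (median 4787) and 2042 to 5959 CPM in control eyes (median 3961). The Nrf2 eye exceeded its partner in 5 of 7 mice, with a log2 fold change of 0.34 (SE 0.28, 95% interval -0.30 to 0.97; edgeR adjusted p = 0.56). Aqp1, the water channel gene, was at 22.7 to 111 CPM (median 64.9) and 26.8 to 124 CPM (median 71.6). Its log2 fold change was -0.14 (SE 0.40, 95% interval -1.05 to 0.77; edgeR adjusted p = 0.89), and the groups overlapped for both genes.

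**Figure D3:**
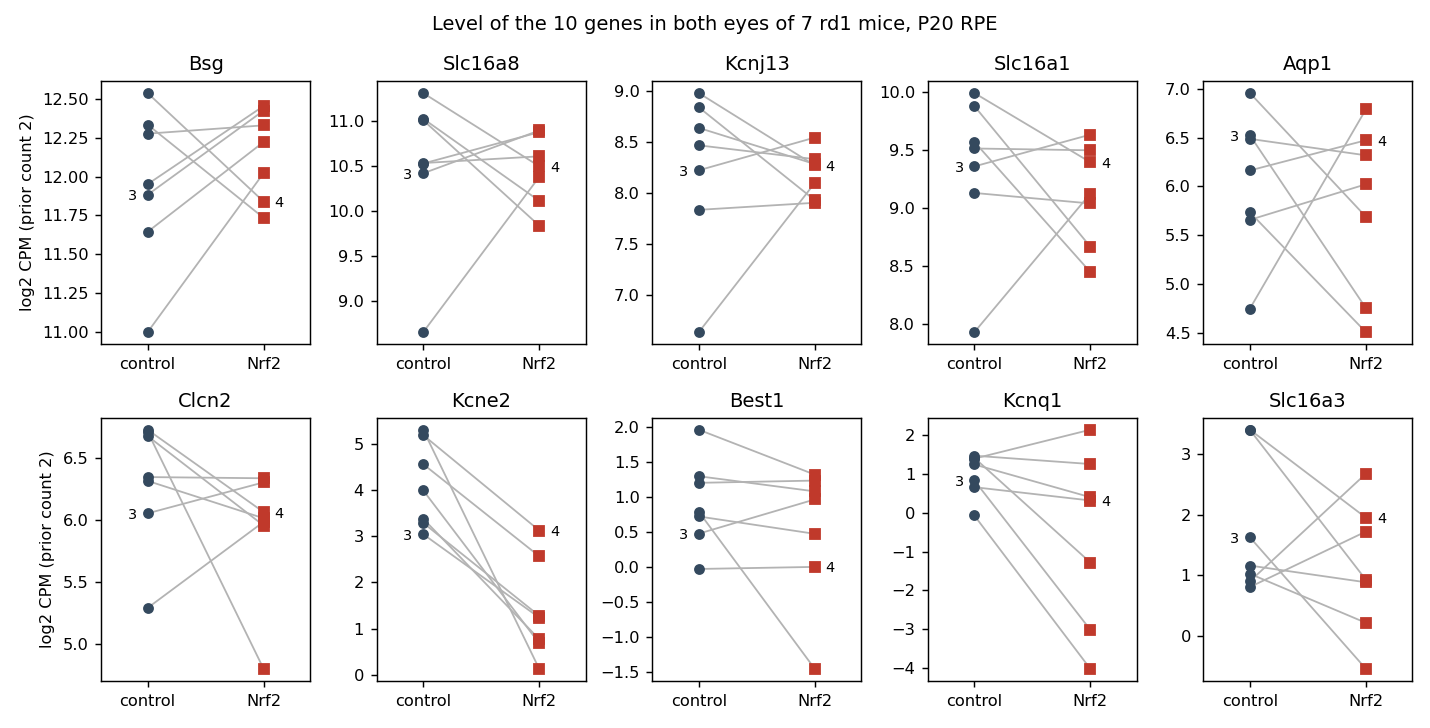
Log2 CPM (prior count 2) of the 10 genes, with a line joining the control eye (circle) and the Nrf2 eye (square) of each mouse, and control 3 and Nrf2 4 numbered. Lines fall in all 7 mice for Kcne2, and cross in direction between mice for every other gene.

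In total, 0 of the 9 genes other than Kcne2 passed an adjusted p of 0.05 in edgeR's paired quasi-likelihood test, against 3.43% of all tested genes (0.491% lower and 2.94% higher). At an unadjusted p under 0.05, edgeR counted 0 of 9, against 18.1% of all genes. DESeq2 counted 1 and limma voom 2, but without their all-gene shares at this threshold nothing is read from these counts. Neither of the latter tools called any of the 9 after adjustment, while DESeq2 called 11.9% and voom 15.9% of all genes. Of the 9 log2 fold changes, 6 were below 0, with a median of -0.14, where the median of all tested genes was -0.04. The intervals still allowed a log2 change of 0.97 for Bsg, -1.80 for Slc16a3 and -3.61 for Kcnq1, so equality of the groups was not shown.

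**Figure D4:**
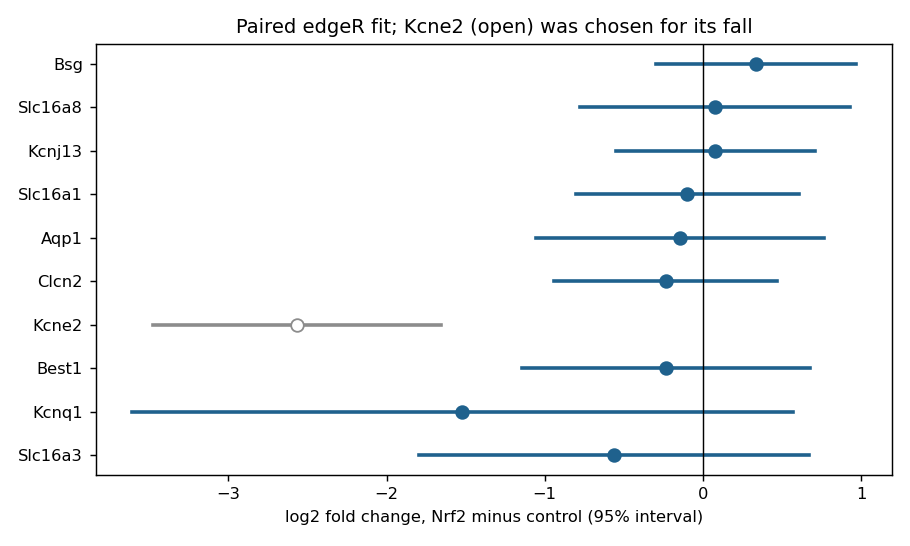
Log2 fold change of Nrf2 minus control for the 10 genes in order of level, with 95% intervals from the paired edgeR fit. The interval spans 0 for 9 genes, and the open point at -2.56 is Kcne2, which was chosen for its fall and has no test.

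Several of the genes varied together between libraries. Over 14 libraries, centred within groups, Slc16a8 and Slc16a1 had r = 0.96, Slc16a8 and Bsg 0.90, Kcnj13 and Slc16a8 0.89, and Slc16a8 and Clcn2 0.88. Kcne2 stood outside this set, with r between -0.01 for Clcn2 and 0.42 for Kcnj13. Control 5 was the lowest control library for Kcnj13, Slc16a8, Slc16a1, Bsg and Clcn2 alike, and the highest of all libraries for Aqp1, at 124 CPM. Over the same 14 libraries, centred within groups, the r of these genes other than Aqp1 with the summed RPE markers ran from -0.13 for Clcn2 to 0.12 for Kcnj13. Among the 7 control libraries alone, it ran from 0.58 for Clcn2 to 0.77 for Bsg. The points share library depth, and these correlations are descriptions.

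The genes nearest to each were compared in the same way. Slc16a8 and Slc16a1 both had Rdh10, a retinol dehydrogenase, and Slc24a1, a sodium, calcium and potassium exchanger, among their closest 3, at r of 0.98. The closest were Slc7a10, an amino acid transporter, for Slc16a8 (0.99), Cdr2 for Slc16a1 (0.99), Sorbs3 for Bsg (0.99), Arl6ip1 for Kcnj13 (0.97) and the chloride channel gene Clic6 for Clcn2 (0.98).

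The wider transport genes were described by 9 lists of 109 genes, of which 95 were tested. The threshold was passed by 4 of them, 3 higher and 1 lower, or 4.21% beside 3.43% of all genes. The median log2 fold change was -0.15. Both shares are close, and nothing is called particular to the lists.

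Within the monocarboxylate list, 2 of 15 tested genes rose. Slc16a4, which encodes the transporter MCT5, was at 33.7 to 68.9 CPM in Nrf2 eyes (median 52.1) and 14.6 to 36.6 CPM in control eyes (median 30.5), higher in 7 of 7 mice. Its log2 fold change was 1.12 (SE 0.17, edgeR adjusted p = 0.0136), and the call was lost without mouse 1, 3 or 7, at adjusted p of 0.0519 to 0.0601. Ldhb, the lactate dehydrogenase subunit of oxidative tissue, was higher in 6 of 7 mice, with medians of 1006 and 555 CPM and a log2 fold change of 0.96 (SE 0.19, edgeR adjusted p = 0.0336). That call was lost when any mouse but mouse 4 was left out, at adjusted p of 0.0644 to 0.123. Ldha, the subunit of glycolytic tissue, had medians of 394 and 599 CPM and did not pass (log2 fold change -0.41, edgeR adjusted p = 0.19).

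In the pumps and bicarbonate list, 1 of 23 tested genes rose. Slc26a7, an anion exchanger gene, had medians of 292 in Nrf2 eyes and 182 CPM in control eyes, with a log2 fold change of 0.84 (SE 0.18, edgeR adjusted p = 0.0430). Among the 11 tested inward rectifier genes other than Kcnj13, all 11 log2 fold changes were below 0, with a median of -1.23, where 54.8% of all tested genes were below 0. A gene low in Nrf2 eyes could pass the filter on low counts through its control eyes, so nothing is read from this count. Of the list's untested genes, Kcnj1 and Kcnj4 had higher means in Nrf2 eyes, at 0.164 and 0.241 against 0.0943 and 0.209 CPM. Kcnj6 was lower, at 0.273 against 0.338 CPM. Of the 11, 3 had an unadjusted edgeR p under 0.05, beside 18.1% of all genes. Kcnj5, Kcnj11, Kcnj12 and Kcnj14 were near the floor, with means of 1.07 to 1.64 CPM. Retina markers moved with several of the 11. Kcnj5, Kcnj9, Kcnj10, Kcnj12 and Kcnj14, singled out after their values were seen, had their highest 2 control values in controls 1 and 4. These libraries had the most rod and cone marker RNA. Kcnj9, for example, was at 37.2 and 32.4 CPM there and at 0 to 3.34 CPM in the other controls, and the part of retina RNA was not tested. The list's 1 called gene was Kcnj8, the pore of a vascular ATP-sensitive potassium channel, at 9.61 to 36.7 CPM (median 14.1) and 16.8 to 82.6 CPM (median 48.5), with a log2 fold change of -1.59 (SE 0.32, edgeR adjusted p = 0.0335). Endothelial markers summed to 62.7 to 139 CPM in Nrf2 eyes and 50.4 to 239 CPM in control eyes and were lower in 6 of 7 mice, and their part in Kcnj8 was not tested. The Slc26a7 call was lost when any mouse but mouse 4 was left out, at adjusted p of 0.0565 to 0.147, and the Kcnj8 call without mouse 1, 2, 3, 6 or 7, at 0.0585 to 0.119. Without mice 3 and 4 together, both calls were lost (edgeR adjusted p = 0.0681 for Slc26a7 and 0.0501 for Kcnj8). Slc16a4 and Ldhb stayed called at log2 fold changes of 1.27 and 1.11, and Slc16a11, a monocarboxylate transporter family gene, was called instead at -2.08 (edgeR adjusted p = 0.0440). Slc16a11 was highest in controls 6 and 5, at 353 and 207 CPM. These libraries also had the highest surface epithelium sums, at 54394 and 34523 CPM, and the part of those cells was not tested.

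No gene passed in the other 6 lists, which held 3 tested KCNE subunits, 3 KCNQ channels, 7 further reported KCNE2 partners, 17 chloride channels, 9 aquaporins and 8 RPE cation channels. Among reported KCNE2 partners, Slc5a3, the myo-inositol transporter gene, had a log2 fold change of 0.37 (edgeR adjusted p = 0.36). By CPM it was lower in the Nrf2 eye of 5 of 7 mice, with medians of 21.8 CPM in Nrf2 eyes and 21.6 CPM in control eyes. Of the chloride channel list, Clcn3, the gene of an endosomal chloride and proton exchanger, had a log2 fold change of -0.05 (edgeR adjusted p = 0.84). Trpm3, a heat- and steroid-sensitive cation channel gene and the highest of the cation channel list, was at 0.35 (edgeR adjusted p = 0.42). Among the other KCNE subunits, Kcne1l was highest, at a log2 fold change of -0.77 (edgeR adjusted p = 0.36). Aqp5, an aquaporin of the cornea and glands, had medians of 1257 and 2166 CPM and a log2 fold change of -0.78 (edgeR adjusted p = 0.64), beside surface epithelium sums that were lower in 6 of 7 mice.

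**Figure D5:**
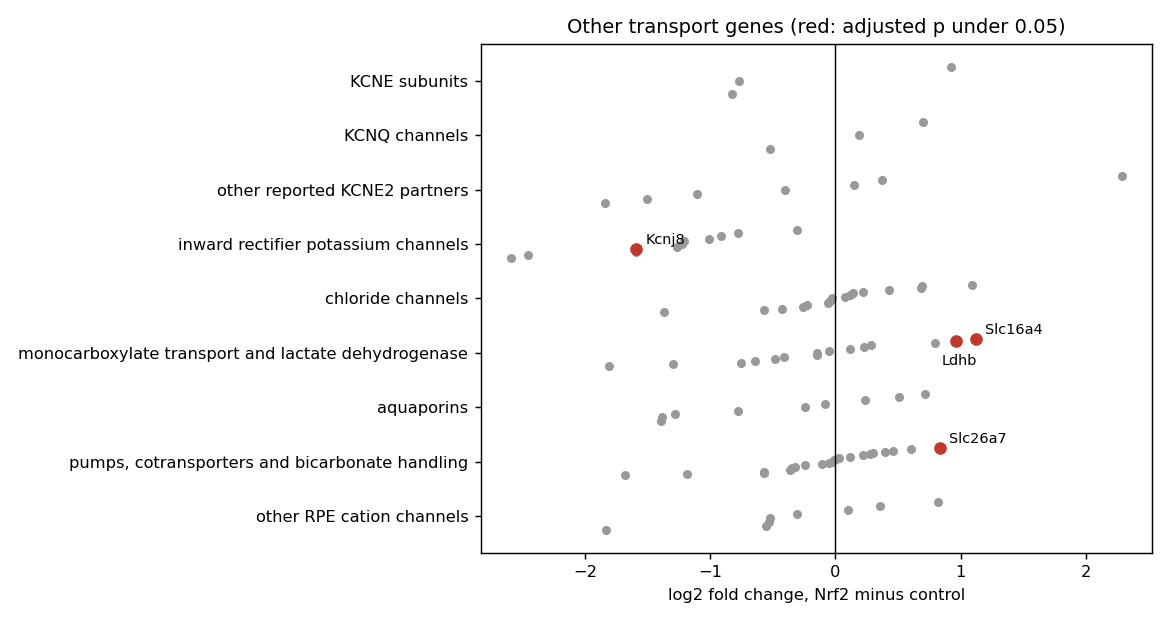
Log2 fold change of Nrf2 minus control for each tested gene of the 9 transport lists, with a point per gene and a labelled red point for an adjusted p under 0.05 in the paired edgeR fit. Slc16a4, Ldhb and Slc26a7 lie above 0, and Kcnj8 lies below. All 11 tested inward rectifier genes lie below 0, a count that the filter on low counts may have shaped.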

How the data were processed

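RNA of both eyes of 7 mice was measured in 14 libraries. The authors amplified polyA RNA with a low-input kit, and the submitters' processing notes name FastQC and Salmon 0.9.1. The study aligned reads to mm10 with Ensembl 91 annotation and summed Salmon estimates per gene. The deposited table holds whole-number estimated counts for each gene without scaling between libraries. Its origin in Salmon was read from which rows it has, and such counts divide reads between similar genes by a model. Reads were amplified and carry no molecular identifiers, so floors cover counting error only. The labels mention 2 sequencing runs without assigning libraries, so no comparison within runs was made.

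Counts were tested with edgeR 4.0.16 (R 4.3.3) by the quasi-likelihood test with mouse and treatment as terms, TMM, filterByExpr with a minimum count of 10, and Benjamini-Hochberg adjustment over 16289 genes. The NFE2L2 row stayed in library totals and was not tested. CPM are per library total, and log2 CPM used a prior count of 2. Fold changes come from the paired fit with TMM scaling and CPM do not, so their directions can differ, as for Kcnj13 and Slc16a8. Intervals are 95%, and single genes were also tested by an exact sign-flip permutation over 128 patterns. Gene positions and lengths came from GENCODE M21, which held 34401 of the 34452 gene rows. The fit was tested on simulated data. Eyes were paired by the number in their sample titles, as the paper describes paired eyes of each mouse. Deviations of the eyes of a mouse from their group means correlated at -0.31 to 0.30 (median 0.03), against a median of 0.02 for eyes of different mice. The partner eye was the closest in 0 of 7 mice. The counts themselves thus do not show the pairing, and the block, the sign-flip test and all counts of mice rest on the titles. Separate libraries are separate eyes.

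The 10 genes, lists and markers were chosen with earlier results of these data known. The text names the 10 genes, then of each transport list the genes past the threshold, up to 4 by smallest p, or otherwise some of the 3 highest in mean CPM, and for genes with a mean of at least 5 CPM the closest 3 or fewer by centred Pearson's r. Ldha was named after its values were seen. Some genes that this rule would name are not reported here. Alternatives were no block, RLE and upper-quartile scaling, DESeq2 1.42.0, limma 3.58.1 voom with quality weights, other filters, another prior count, leaving out each mouse, leaving out mice 3 and 4 and, added after seeing the data, leaving the vector row out of totals.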

Additional observations from a re-analysis of the deposited data

Results flagged for a closer look

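Values far from the rest of their group were looked for in 30 groups of 7 values, where chance gives about 1.5 such values, and 2 were found. The within-mouse log2 difference of Best1 in mouse 2 was -2.25, and the nearest of the other mice was at -0.64. The Clcn2 level in Nrf2 2 was 27.7 CPM, and the nearest Nrf2 eye was at 62.0 CPM. Both values involve Nrf2 2, the library with the fewest counts.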

How the results depend on the processing

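None of the 9 genes other than Kcne2 passed in edgeR, DESeq2 or voom under any alternative run. The log2 fold change of Kcne2 stayed between -2.92 and -2.23 over all 17 fits, and between -2.72 and -2.23 with each mouse left out. Without the replicate block, the test called 1100 genes in place of 559, and the values of Kcnj13 and Slc16a8 turned to -0.025 and -0.012 and that of Kcnq1 moved to -0.53, while the transport lists kept 4 calls. DESeq2 called 1943 genes and 16 transport genes, voom called 2590 and 23, and the fit with no filter on low counts called 347 and 2. Under voom, Best1 was at 0.0034, Slc16a1 at 0.26, Clcn2 at 0.14, Kcnj13 at 0.42, Slc16a8 at 0.57, Aqp1 at -0.66, Slc16a3 at -1.10 (adjusted p = 0.092) and Bsg at 0.63 (adjusted p = 0.058). Leaving out each mouse gave 111 to 1998 called genes, the highest without mouse 4, and 0 to 13 transport genes, with 13 without mouse 4 and 0 without mouse 1, 3 or 7. It gave 0 to 1 of the 9 by the sign-flip test. The 1 was Kcnq1 without mouse 2, where the shared sign of the remaining mice fixed the result. Leaving out each mouse also changed estimates. This moved the log2 fold changes of genes that changed sign across -0.38 to 0.061 for Best1, -0.16 to 0.23 for Kcnj13, -0.21 to 0.30 for Slc16a8, -0.33 to 0.083 for Slc16a1, -0.48 to 0.12 for Aqp1 and -0.42 to 0.032 for Clcn2. Without mice 3 and 4, 745 genes and 3 transport genes passed, Aqp1 was at 0.015 and Slc16a3 at -0.06. Against the vector transcript, TMM scaling turned Kcnj13 to r = 0.17 and Clcn2 to r = 0.16, and leaving out each Nrf2 eye gave r of -0.28 to 0.17 for Kcnj13, -0.17 to 0.20 for Slc16a8, -0.41 to 0.14 for Slc16a1 and -0.15 to 0.31 for Clcn2. With the vector row left out of totals, 441 genes passed. The cause of these shifts was not tested. Best1 rested on 5 to 119 counts a library and Kcnq1 on 0 to 93, so counting error is widest for these.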
